A study of Mus musculus with 2 samples.

Results

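To ask how the genes that copy and mend DNA were expressed in the cells that reside in bone after chemotherapy, 40 genes were followed in 2 single-cell RNA-sequencing libraries. The genes were chosen by name and not by their values, although earlier results of these data were known when they were chosen. They comprise 21 replication (S-phase) genes and 19 DNA repair genes, out of 21905 gene symbols measured, and all 40 were found in both libraries. The Veh library came from vehicle-treated mice and the Doxo library from mice given doxorubicin at 10 mg/kg, and both were made from leg bones (femur and tibia) taken after 96 h. All mice were female and 12 weeks old. How many mice each library holds, and their strain, were not stated for this experiment. In both libraries, cells bearing CD45, CD71 or Ter119 were depleted by sorting. The labels name CD31, an endothelial marker, among the depleted antigens as well, and the study's methods do not.

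Before a cell divides, the Mcm2 to Mcm7 helicase unwinds DNA at origins, ribonucleotide reductase (Rrm1, Rrm2), thymidylate synthase (Tyms) and Dut supply or clean the nucleotide pool, and Pcna clamps the polymerases to the template. Most of these genes are targets of the E2F factors and are transcribed around S phase, so a dividing cell carries far more of their RNA than a resting one. Doxorubicin poisons topoisomerase II and leaves double-strand breaks. The kinases Atm, Atr and Prkdc signal such breaks, the Mre11a, Rad50 and Nbn proteins bind the broken ends, and the ends are rejoined by end joining (Xrcc4, Xrcc5, Xrcc6, Lig4) or by homologous recombination (Brca1, Brca2).

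Promoter windows are shown for 5 members that the results turn on. They run from 250 bases before to 50 bases after the start of transcription (RefSeq, GRCm38.p6) and are written 5′ to 3′ on the strand of the gene. Capitals mark an E2F motif, searched as TTTGGCGC and TTTCCCGC on both strands. Mcm5, Hells and Brca2 hold 1 match each. Pcna and Rrm2 are shown because they lie far apart in the results below, and neither window holds these letters.

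Mcm5, chr8:75109259-75109558, plus strand: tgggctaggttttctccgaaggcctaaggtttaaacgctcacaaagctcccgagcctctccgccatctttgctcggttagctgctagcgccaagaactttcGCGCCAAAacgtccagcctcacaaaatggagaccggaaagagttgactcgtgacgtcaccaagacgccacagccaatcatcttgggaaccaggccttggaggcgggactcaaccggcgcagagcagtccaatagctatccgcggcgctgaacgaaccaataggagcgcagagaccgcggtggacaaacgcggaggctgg

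Hells, chr19:38930740-38931039, plus strand: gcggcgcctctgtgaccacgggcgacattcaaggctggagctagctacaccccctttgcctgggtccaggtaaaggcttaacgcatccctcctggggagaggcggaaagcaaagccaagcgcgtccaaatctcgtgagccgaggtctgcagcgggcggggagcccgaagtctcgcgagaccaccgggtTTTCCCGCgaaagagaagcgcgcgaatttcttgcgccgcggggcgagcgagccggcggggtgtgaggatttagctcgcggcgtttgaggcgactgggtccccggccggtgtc

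Brca2, chr5:150522371-150522670, plus strand: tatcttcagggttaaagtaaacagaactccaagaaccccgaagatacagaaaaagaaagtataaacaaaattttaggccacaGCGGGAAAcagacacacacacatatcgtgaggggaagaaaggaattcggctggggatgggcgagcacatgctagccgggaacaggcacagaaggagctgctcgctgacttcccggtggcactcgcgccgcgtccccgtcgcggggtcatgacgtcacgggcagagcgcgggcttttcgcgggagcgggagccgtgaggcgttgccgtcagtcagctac

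Pcna, chr2:132253131-132253430, minus strand: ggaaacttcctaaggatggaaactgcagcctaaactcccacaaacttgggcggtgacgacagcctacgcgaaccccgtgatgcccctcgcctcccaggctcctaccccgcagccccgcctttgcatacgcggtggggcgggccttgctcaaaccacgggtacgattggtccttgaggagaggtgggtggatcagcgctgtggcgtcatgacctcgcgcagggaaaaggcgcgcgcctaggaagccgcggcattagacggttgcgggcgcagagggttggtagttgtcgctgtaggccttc

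Rrm2, chr12:24708004-24708303, plus strand: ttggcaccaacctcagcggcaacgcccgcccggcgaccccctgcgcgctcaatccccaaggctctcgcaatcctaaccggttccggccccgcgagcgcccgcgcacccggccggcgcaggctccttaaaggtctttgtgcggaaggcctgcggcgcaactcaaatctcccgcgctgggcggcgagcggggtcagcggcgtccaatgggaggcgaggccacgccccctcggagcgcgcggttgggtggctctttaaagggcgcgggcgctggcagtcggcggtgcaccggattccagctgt

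Of the 17 replication genes with a window in the table used here, 5 (29.4%) held a match (Mcm3, Mcm5, Mcm6, Mcm7 and Hells). Of the 16 repair genes with a window, 3 (18.8%) did (Brca2, Xrcc6 and Msh6), against 1.80% of 27025 genes. Windows of the same length were counted in each case, and a match is a description of the letters only. In the annotation of the same build, Mcm4 (chr16:15623897-15637400, minus strand) and Prkdc (chr16:15637866-15842235, plus strand), 1 replication and 1 repair gene, start 466 bases apart and point away from each other. Pcna and Tyms have copies in the genome (Pcna-ps1, Pcna-ps2 and Tyms-ps), so that their reads may be split with these copies.

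Each library held 2488 cells, with a median of 8693 unique molecules (UMIs) per cell in Veh and 7347.5 in Doxo, and 4 cell barcodes occurred in both. Cells were grouped by markers into 6 classes, called CAR-like, bone and cartilage fibroblast-like, arteriolar and endosteal fibroblast-like, osteoblast-like, chondrocyte-like and endothelial-like, which held 4877 cells. CAR (Cxcl12-abundant reticular) cells are stromal cells of the marrow. The classes were named from the marker lists counted here, so these counts describe the classes and do not test their labels. Of the listed markers, 8 of 8 were raised in CAR-like, chondrocyte-like and endothelial-like cells. The count was 7 of 8 for arteriolar and endosteal fibroblast-like cells and 6 of 8 for osteoblast-like cells. For the bone and cartilage fibroblast-like class it was 6 of 10, and Chad, Tnmd, Fn1 and S100a4 were not raised. Endothelial-like cells were present (103 in Veh and 69 in Doxo). The summed level of 8 erythroid markers, hemoglobins included, was 185.7 to 706.9 UMIs per 1000000 (CPM) in the classes of Veh and 4.11 to 42.9 CPM in those of Doxo, lower in Doxo in all 6 classes, and hence moves with the condition in every comparison below. The 7 immune markers were lower in Doxo in 4 classes, most of all in CAR-like (450.0 and 57.3 CPM) and bone and cartilage fibroblast-like cells (460.8 and 53.3 CPM), but higher in endothelial-like cells (39.95 and 77.1 CPM) and level in chondrocyte-like cells (20.98 and 21.6 CPM). The 6 megakaryocyte or platelet markers were lower in 5 classes, from 494.2 to 241.7 CPM in arteriolar and endosteal fibroblast-like and from 127.5 to 14.55 CPM in CAR-like cells. The part of blood RNA in the results was examined only by leaving out cells with blood markers or hemoglobin, as given below for the sums. Since each condition has 1 library, no test of the conditions was possible. The 95% intervals given below are exact and cover counting error only.

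Summed over the list, replication RNA was highest in endothelial-like and CAR-like cells and lowest in osteoblast-like cells in both libraries. In CAR-like cells the 21 genes came to 408.4 CPM (384.0 to 434.0) in Veh and 470.8 CPM (447.9 to 494.6) in Doxo, a log2 ratio of Doxo to Veh of 0.21 (0.09 to 0.32). In endothelial-like cells the values were 389.5 CPM (344.7 to 438.6) and 537.1 CPM (463.1 to 619.6), a log2 ratio of 0.47 (0.19 to 0.74) that rests on 273 and 188 UMIs. The arteriolar and endosteal fibroblast-like cells went the other way, from 331.2 CPM (313.8 to 349.3) to 300.2 CPM (277.0 to 324.9), with a log2 ratio of -0.14 (-0.28 to -0.003). The endothelial-like ratio stayed above 0 under its 12 alternatives. The sum of 56 other replication genes in endothelial-like cells had a log2 ratio of 0.005 (-0.19 to 0.20). The other differences of the 21 genes turned under some alternatives. With cells thinned to 2000 UMIs (shallower cells left out) the CAR-like ratio was -0.18, and with 20 principal components in place of 35 that of the arteriolar and endosteal fibroblast-like cells was 0.10. Values changed little in bone and cartilage fibroblast-like (323.1 and 330.7 CPM, log2 ratio 0.03), chondrocyte-like (299.5 and 292.0 CPM, -0.04) and osteoblast-like cells (202.1 and 197.2 CPM, -0.03), where the interval of the ratio included 0, although single members lay on both sides. At a clustering resolution of 0.2 in place of 0.1 the osteoblast-like ratio was 1.25. Without cells of at least 10 hemoglobin UMIs (35 in Veh, 0 in Doxo), the replication ratio was 0.23 in CAR-like, 0.07 in bone and cartilage fibroblast-like, -0.14 in arteriolar and endosteal fibroblast-like, -0.01 in osteoblast-like, 0.01 in chondrocyte-like and 0.47 in endothelial-like cells. Without cells that bear blood markers (Ptprc, or a pair of erythroid or progenitor markers, 245 cells in Veh and 175 in Doxo) it was 0.17, 0.07, -0.12, -0.15, 0.03 and 0.46 in the same order.

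The repair genes had a narrower range across classes and were lower in Doxo in 4 of 6 classes. In bone and cartilage fibroblast-like cells the 19 genes came to 240.0 CPM (231.0 to 249.2) in Veh and 210.6 CPM (202.1 to 219.5) in Doxo, with a log2 ratio of -0.19 (-0.27 to -0.11). In osteoblast-like cells they came to 239.4 CPM (206.3 to 276.4) and 172.6 CPM (137.6 to 213.6), a log2 ratio of -0.47 (-0.86 to -0.09) from 186 and 84 UMIs, and -0.02 at a resolution of 0.2. The median share of mitochondrial UMIs in osteoblast-like cells was 2.20% in Veh and 4.42% in Doxo, the widest gap among the 6 classes, and its part in this difference was not tested. In the other 4 classes the interval of the repair ratio included 0, with log2 ratios of 0.06 in CAR-like, -0.12 in arteriolar and endosteal fibroblast-like, 0.07 in chondrocyte-like and -0.30 in endothelial-like cells. Without cells bearing blood markers, the repair ratio was 0.09 in CAR-like, -0.15 in bone and cartilage fibroblast-like, -0.12 in arteriolar and endosteal fibroblast-like, -0.47 in osteoblast-like, 0.11 in chondrocyte-like and -0.29 in endothelial-like cells.

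**Figure D1:**
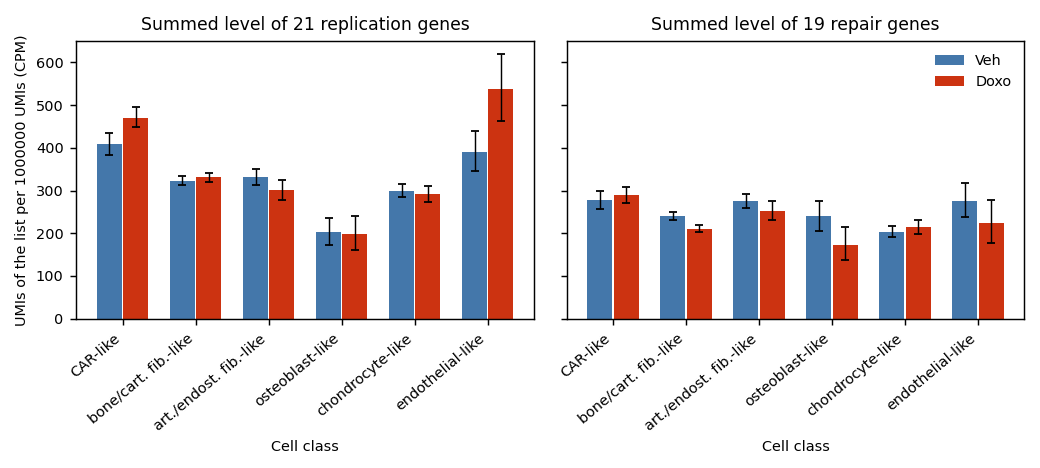
Summed level of the 21 replication genes (left) and the 19 repair genes (right) in 6 cell classes, in UMIs per 1000000, with 1 library per bar (Veh blue, Doxo red) and exact Poisson 95% intervals that cover counting error only. Replication RNA stands higher in Doxo in CAR-like (470.8 against 408.4 CPM) and endothelial-like cells (537.1 against 389.5 CPM), and repair RNA stands lower in bone and cartilage fibroblast-like and osteoblast-like cells.

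Members were then taken one by one. A member was counted in a class if it had at least 20 UMIs over both libraries, and as lower or higher if its CPM differed at least 1.5-fold. By this rule of size, in CAR-like cells 0 of 21 replication genes were lower and 3 (14.3%) higher, where 9.89% of all genes with the minimum were lower and 12.9% higher. The corresponding numbers were 1 lower and 0 higher of 21 in bone and cartilage fibroblast-like cells (all genes 9.38% and 4.17%), and 6 lower and 1 higher of 20 in arteriolar and endosteal fibroblast-like cells (all genes 9.35% and 7.07%). They were 1 lower and 1 higher of 4 in osteoblast-like cells (18.6% and 12.8%), 3 lower and 1 higher of 19 in chondrocyte-like cells (11.5% and 14.8%), and 0 lower and 3 higher of 8 in endothelial-like cells (10.5% and 14.5%). Except for the arteriolar and endosteal fibroblast-like cells on the lower side (30.0%) and the 8 genes of the endothelial-like cells on the higher side (37.5%), these shares lie within a few genes of the background. For the repair genes, lower and higher numbered 1 and 1 of 18 in CAR-like, 2 and 0 of 19 in bone and cartilage fibroblast-like, 1 and 1 of 17 in arteriolar and endosteal fibroblast-like, 1 and 0 of 5 in osteoblast-like, 2 and 2 of 17 in chondrocyte-like and 2 and 1 of 5 in endothelial-like cells. The median log2 ratio over the replication genes with the minimum was 0.13 in CAR-like (all genes 0.06), -0.22 in bone and cartilage fibroblast-like (-0.09), -0.33 in arteriolar and endosteal fibroblast-like (-0.02), 0.49 in osteoblast-like (-0.03), -0.18 in chondrocyte-like (0.06) and 0.22 in endothelial-like cells (0.04). Over the repair genes it was 0.01, -0.15, -0.09, -0.17, -0.01 and -0.45 in the same order. The medians of the replication genes in bone and cartilage fibroblast-like and osteoblast-like cells, and of the repair genes in chondrocyte-like cells, have the sign opposite to the ratio of the sums. Of the 40 genes, 3 replication genes (Pcna, Dut and Rfc2) and 3 repair genes (Rad50, Parp1 and Trp53bp1) reached the minimum in all 6 classes, and 7 replication and 8 repair genes were within 1.5-fold in every class where they reached it.

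**Figure D2:**
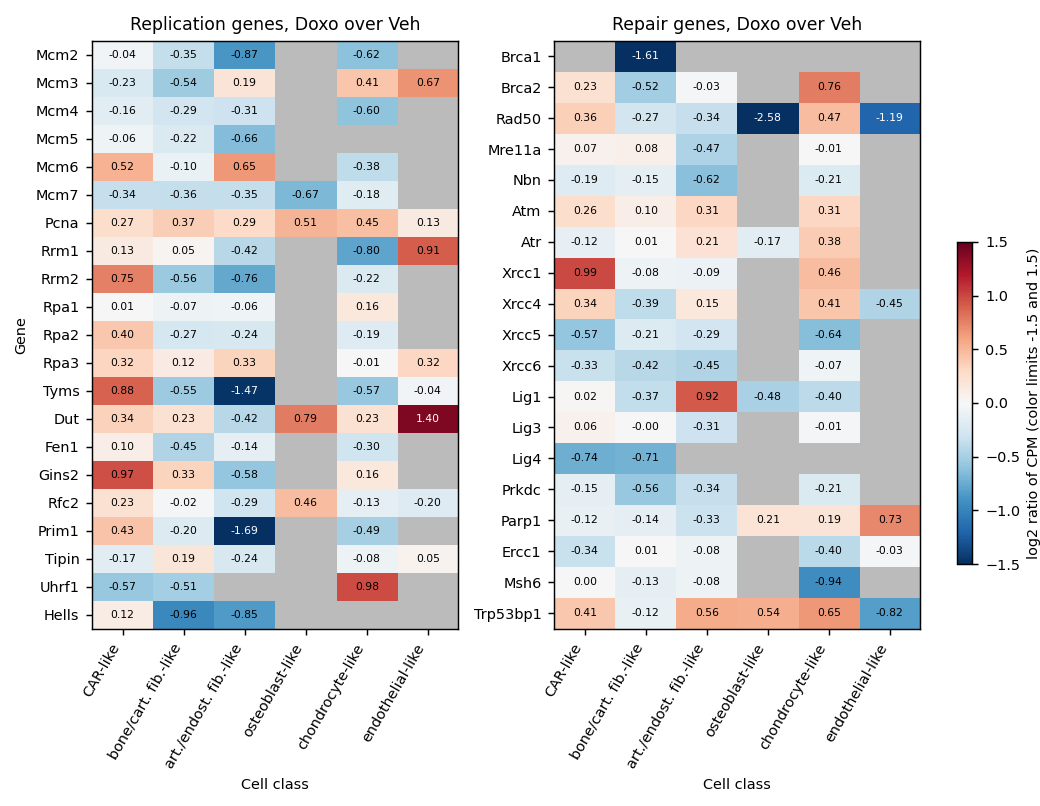
Log2 ratio of CPM in Doxo to CPM in Veh for each replication gene (left) and repair gene (right) in each class, from 1 library per condition, with red for higher and blue for lower in Doxo and gray for fewer than 20 UMIs over both libraries. The row of Pcna is above 0 in all 6 classes (though not in 4 of them under every alternative), whereas the column of the arteriolar and endosteal fibroblast-like cells is mostly blue among replication genes.

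Pcna, the sliding clamp, which also serves in repair and is a known target of p53, was the only replication gene above 0 in all 6 classes, and in none did it pass 1.5-fold. In CAR-like and bone and cartilage fibroblast-like cells it was also above 0 under every alternative, but it fell below 0 in the other 4 under 1 alternative each. It had in bone and cartilage fibroblast-like cells 729 UMIs in Veh and 905 in Doxo, that is 64.8 CPM (60.2 to 69.7) and 83.7 CPM (78.4 to 89.4), a log2 ratio of 0.37 (0.23 to 0.51). In chondrocyte-like cells it stood at 55.1 CPM in Veh and 75.2 CPM in Doxo, a log2 ratio of 0.45 (0.19 to 0.71). With each cell thinned to 2000 UMIs, the ratio was -0.02 in chondrocyte-like, -0.14 in arteriolar and endosteal fibroblast-like and -0.43 in osteoblast-like cells but 0.29 in bone and cartilage fibroblast-like cells, and with each cell weighing the same it was -0.07 in endothelial-like cells. The log2 ratios of the other 4 classes were 0.27 in CAR-like, 0.29 in arteriolar and endosteal fibroblast-like, 0.51 in osteoblast-like and 0.13 in endothelial-like cells, each with an interval that includes 0. The level of Pcna was highest in endothelial-like cells, at 128.4 CPM (103.3 to 157.8) in Veh and 140.0 CPM (103.6 to 185.1) in Doxo, and lowest in osteoblast-like cells, at 23.2 and 32.9 CPM. The CAR-like, chondrocyte-like and both fibroblast-like classes lay between 55.1 and 64.8 CPM in Veh.

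The helicase genes Mcm2 to Mcm7 did not move as 1 block. Mcm2, Mcm4, Mcm5 and Mcm7 were below 0 in every class where they reached the minimum, and Mcm3 and Mcm6 were not. Mcm4 in chondrocyte-like cells fell from 165 to 69 UMIs, that is from 33.95 CPM (29.0 to 39.5) to 22.3 CPM (17.3 to 28.2), a log2 ratio of -0.60 (-1.04 to -0.20). With each cell thinned to 2000 UMIs this ratio was 0.01. The neighbour of Mcm4, Prkdc, had 55 and 30 UMIs in the same cells, a log2 ratio of -0.21 (-0.92 to 0.44). Mcm6 in arteriolar and endosteal fibroblast-like cells had 55 UMIs in Veh and 43 in Doxo, that is 13.4 CPM against 20.96 CPM, with a log2 ratio of 0.65 (0.04 to 1.25), and -0.03 when thinned. In bone and cartilage fibroblast-like cells, where they had most UMIs, Mcm3 (97 and 64 UMIs, log2 ratio -0.54), Mcm6 (387 and 346, -0.10) and Mcm7 (154 and 115, -0.36) were all within 1.5-fold, as were Mcm2 (36 and 27, -0.35), Mcm4 (144 and 113, -0.29) and Mcm5 (46 and 38, -0.22). Mcm7 of these cells was at 0.14 when thinned. Mcm2 was lower in arteriolar and endosteal fibroblast-like (16 and 4 UMIs) and chondrocyte-like cells (20 and 8), and Mcm5 (20 and 6) in the former, from few UMIs.

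Of the genes of the nucleotide pool, Rrm2 and Tyms were above 0 in CAR-like and below 0 in both fibroblast-like classes, a difference that was not tested, and Rrm1 and Dut were above 0 in CAR-like and bone and cartilage fibroblast-like cells alike. Rrm2, the small subunit of ribonucleotide reductase, whose level follows S phase, had 28 UMIs in Veh and 63 in Doxo in CAR-like cells, that is 11.0 CPM (7.30 to 15.9) and 18.7 CPM (14.4 to 23.9), a log2 ratio of 0.75 (0.10 to 1.47). It was -0.66 with each cell weighing the same and -0.13 at a resolution of 0.2. In arteriolar and endosteal fibroblast-like cells it had 25 and 7 UMIs, a log2 ratio of -0.76 (-2.29 to 0.42), and in bone and cartilage fibroblast-like cells 63 and 41, a log2 ratio of -0.56 (-1.17 to 0.03). Without the cycling cells defined below, Rrm2 in bone and cartilage fibroblast-like cells was at -0.14 (-0.78 to 0.50). Tyms, which makes thymidylate, showed the same pattern. It had 26 and 64 UMIs in CAR-like cells, a log2 ratio of 0.88 (0.22 to 1.61), but 41 and 7 UMIs in arteriolar and endosteal fibroblast-like cells, a log2 ratio of -1.47 (-2.95 to -0.38) that was 0.22 with 20 principal components. Rrm1, the large subunit, had 58 and 21 UMIs in chondrocyte-like cells (-0.80, interval -1.61 to -0.07) and 16 and 15 UMIs in endothelial-like cells (0.91, interval -0.21 to 2.02). Dut, which keeps uracil out of DNA, had 12 and 16 UMIs in endothelial-like cells, that is 17.1 CPM (8.85 to 29.9) and 45.7 CPM (26.1 to 74.2), a log2 ratio of 1.40 (0.25 to 2.63), and 12 and 13 UMIs in osteoblast-like cells (0.79). Its log2 ratio was 0.34 (0.03 to 0.66) in CAR-like, 0.23 (0.04 to 0.43) in bone and cartilage fibroblast-like and -0.42 (-0.83 to -0.03) in arteriolar and endosteal fibroblast-like cells.

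Among the remaining replication genes, Gins2, a part of the active helicase, had 19 UMIs in Veh and 50 in Doxo in CAR-like cells, that is 7.46 CPM against 14.8 CPM, with a log2 ratio of 0.97 (0.21 to 1.84). Prim1, a primase subunit, had 35 and 5 UMIs in arteriolar and endosteal fibroblast-like cells, a log2 ratio of -1.69 (-3.52 to -0.45). Hells, a chromatin remodeler needed for DNA methylation, had 41 and 20 UMIs in bone and cartilage fibroblast-like cells, that is 3.65 CPM (2.62 to 4.95) and 1.85 CPM (1.13 to 2.86), a log2 ratio of -0.96 (-1.83 to -0.17). It also leaned lower in arteriolar and endosteal fibroblast-like cells (23 and 6 UMIs). Uhrf1, which guides maintenance methylation, had 21 and 14 UMIs in bone and cartilage fibroblast-like cells (-0.51) and 11 and 14 in chondrocyte-like cells (0.98, interval -0.25 to 2.28). In the endothelial-like and osteoblast-like cells, Mcm3 (19 and 15 UMIs, 0.67) and Mcm7 (16 and 6 UMIs, -0.67) passed 1.5-fold with intervals that include 0. Rpa1, Rpa2 and Rpa3, which coat single-stranded DNA, Fen1, Rfc2, Tipin and Pcna were within 1.5-fold in every class where they reached the minimum.

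The repair genes that act on broken ends moved in both directions. Rad50, which tethers broken ends, had 33 UMIs in Veh and 3 in Doxo in osteoblast-like cells, that is 42.5 CPM (29.2 to 59.7) and 6.16 CPM (1.27 to 18.01). The log2 ratio was -2.59 (-5.14 to -1.11), the lowest of all members and classes with the minimum. It was -2.61 with each cell thinned to 2000 UMIs but -0.55 when clusters were cut at a resolution of 0.2. Rad50 also had 20 and 4 UMIs in endothelial-like cells (-1.19, interval -3.33 to 0.26), yet in chondrocyte-like cells it had 118 and 104 UMIs and a log2 ratio of 0.47 (0.07 to 0.86). Its partner Nbn was below 0 in each of the 4 classes where it reached the minimum and passed 1.5-fold in arteriolar and endosteal fibroblast-like cells (72 and 23 UMIs, -0.62, interval -1.39 to 0.05). Mre11a was within 1.5-fold in the 4 classes where it reached the minimum, with log2 ratios from -0.47 to 0.08.

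The end-joining genes Xrcc5 and Xrcc6 (Ku80 and Ku70), Prkdc (the Ku-bound kinase) and Lig4 (the ligase) were below 0 wherever they reached the minimum. This was in 4 classes for the first 3 genes and in 2 for Lig4. Xrcc4, the partner of Lig4, did not share the pattern and was above 0 in 3 of the 5 classes where it reached the minimum. In bone and cartilage fibroblast-like cells, Prkdc had 114 UMIs in Veh and 74 in Doxo, that is 10.1 CPM (8.36 to 12.2) and 6.85 CPM (5.38 to 8.59), a log2 ratio of -0.56 (-1.01 to -0.13). In the same cells Xrcc6 had 145 and 104 UMIs (-0.42, interval -0.80 to -0.05, and 0.12 when thinned), Xrcc5 had 137 and 114 (-0.21) and Lig4 had 43 and 25 (-0.71, interval -1.498 to 0.02). Xrcc5 passed 1.5-fold in chondrocyte-like cells, with 86 and 35 UMIs, that is 17.7 CPM (14.2 to 21.9) and 11.3 CPM (7.87 to 15.7), a log2 ratio of -0.64 (-1.26 to -0.07). Lig4 passed it in CAR-like cells with 14 and 11 UMIs (-0.74). The log2 ratios of Xrcc4 were 0.34 in CAR-like and -0.39 in bone and cartilage fibroblast-like cells. When thinned, the share of cells with a Prkdc UMI was 2.54% in Veh and 4.08% in Doxo in CAR-like cells, with overlapping intervals. It was 2.9% and 3.0% in chondrocyte-like cells, and lower in Doxo in both fibroblast-like classes. For Xrcc5 the thinned share was 2.54% and 2.64% in CAR-like cells and lower in Doxo in the other classes with the minimum. For Lig4 it was 0.28% and 0.53% in bone and cartilage fibroblast-like cells but 1.13% and 0.24% in CAR-like cells.

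Of the genes of homologous recombination, Brca1 had 17 and 5 UMIs in bone and cartilage fibroblast-like cells, the only class where it reached the minimum, a log2 ratio of -1.61 (-3.50 to -0.21). The 17 Veh UMIs lay in 10 cells, and 7 of them in the cycling cells defined below. Without cycling cells Brca1 had 10 and 5 UMIs, under the minimum, and the ratio was -0.91 (-2.87 to 0.71). Brca2 was split, with 88 and 59 UMIs in these cells (-0.52, interval -1.02 to -0.03) and 24 and 26 UMIs in chondrocyte-like cells (0.76, interval -0.09 to 1.63). The kinase Atm was the only repair gene above 0 in every class where it reached the minimum, at 138 and 142 UMIs in bone and cartilage fibroblast-like cells (0.10) and between 0.26 and 0.31 in CAR-like, arteriolar and endosteal fibroblast-like and chondrocyte-like cells, each with an interval that includes 0. Atr lay between -0.17 and 0.38 where it reached the minimum. Trp53bp1, which binds chromatin next to breaks, had 75 UMIs in either library in chondrocyte-like cells, and at the lower depth of Doxo this is 15.4 CPM (12.1 to 19.3) against 24.2 CPM (19.03 to 30.3), a log2 ratio of 0.65 (0.17 to 1.13). In endothelial-like cells it had 19 and 5 UMIs (-0.82).

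Xrcc1, the scaffold of single-strand break repair, was the repair gene with the largest ratio in CAR-like cells among those with the minimum. It had 18 UMIs in Veh and 48 in Doxo, that is 7.06 CPM (4.19 to 11.2) and 14.3 CPM (10.5 to 18.9), a log2 ratio of 0.99 (0.21 to 1.88). In the bone and cartilage fibroblast-like cells Xrcc1 was level (153 and 139 UMIs, -0.08, interval -0.42 to 0.26). Lig1, which seals Okazaki fragments and repair nicks, stood higher in arteriolar and endosteal fibroblast-like cells, with 34 UMIs (8.27 CPM) in Veh and 32 in the smaller sum of Doxo (15.6 CPM), a log2 ratio of 0.92 (0.17 to 1.66). Msh6, which recognizes mismatches, had 64 and 21 UMIs in chondrocyte-like cells, a log2 ratio of -0.94 (-1.74 to -0.23), and 0.26 when thinned. Parp1, which senses strand breaks, had 155 and 135 UMIs in bone and cartilage fibroblast-like cells (-0.14) and passed 1.5-fold only in endothelial-like cells (11 and 9 UMIs, 0.73). Ercc1 and Lig3 were within 1.5-fold in every class where they reached the minimum.

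To ask how much of this RNA lay in dividing cells, cells were called cycling where at least 3 of 12 proliferation markers were found, none of them a member (such as Mki67, Top2a and Cdk1). They numbered 68 of the 4877 cells (1.39%) and held 2.11% of all UMIs. The replication genes were concentrated in them and most repair genes were not. Of 285 Rrm2 UMIs, 114 (40%, interval 34.3% to 45.9%) lay in these 68 cells, where the level was 121.9 CPM against 3.93 CPM in all other cells. Uhrf1 had 29.9% of its UMIs there (21.8% to 39.1%), Hells 18.5%, Mcm5 13.4%, Tyms 12.7%, Mcm2 12.1% and Prim1 10.4%, while Pcna had 3.61% (2.98% to 4.33%) and Rpa1 2.14%. The CPM in cycling cells was at least 5-fold that in other cells for 7 of 21 replication genes and 2 of 19 repair genes, and at least 2-fold for 16 and 5. Among these 7 genes, Mcm5 and Hells hold an E2F match, and Rrm2, Uhrf1, Tyms, Mcm2 and Prim1 do not. Of all replication genes with a window, 5 of 17 (29.4%) hold a match. The other holders were not among the 7. Their CPM in cycling cells was 4.75 (Mcm3), 1.74 (Mcm6) and 4.68 (Mcm7) times that in other cells. The 2 repair genes were Brca1 (21 of 59 UMIs, 35.6%, interval 23.6% to 49.1%) and Lig1 (13.9%, interval 10.8% to 17.5%). The median share was 8.91% over the replication genes and 2.47% over the repair genes. Cycling cells were defined by genes that rise with these members, and the shares pool both libraries and all classes, so they are a description.

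**Figure D3:**
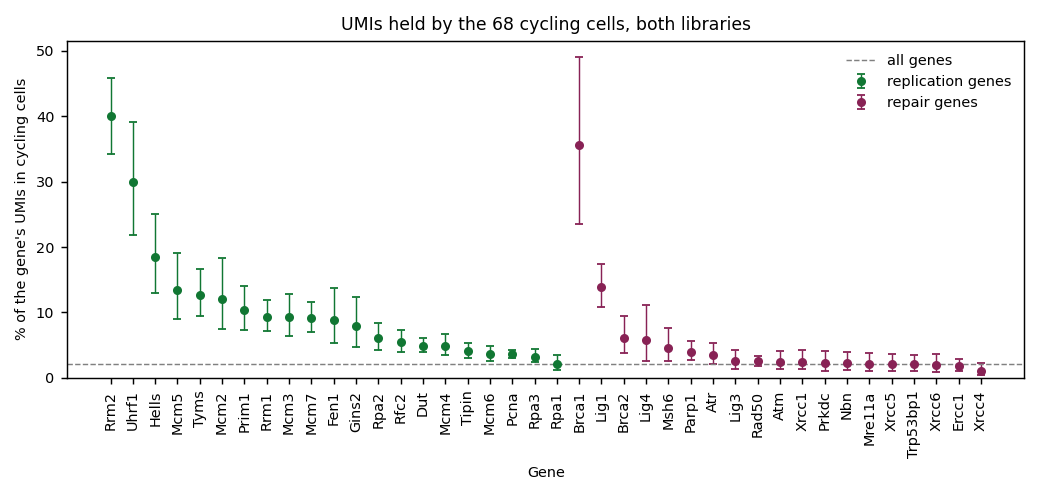
Percentage of the UMIs of each gene found in the 68 cycling cells, over both libraries and 6 classes, with exact binomial 95% intervals that cover counting error only; the dashed line is the share of all UMIs (2.11%). Rrm2 (40%), Uhrf1 (29.9%) and Brca1 (35.6%) stand far above the line, whereas Pcna (3.61%) and most repair genes lie near it.

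Without thinning, cycling cells were fewer in Doxo over the whole, 48 of 2488 cells in Veh (1.93%) and 20 of 2488 in Doxo (0.804%), but not in CAR-like cells. The depth of the libraries differs, and thinned shares are given below. Among bone and cartilage fibroblast-like cells they numbered 16 of 1105 in Veh (1.45%, interval 0.830% to 2.34%) and 1 of 1358 in Doxo (0.0736%, 0.00186% to 0.410%). Thinned to 2000 UMIs these were 5 of 1078 (0.464%) and 0 of 1320, which allows up to 0.279%. Of the 16 Veh cells, 7 held at least 10 hemoglobin UMIs and together 110 of the 196 replication UMIs of the 16 cells. Without the hemoglobin-bearing cells the Veh share was 0.820%. In chondrocyte-like cells, 13 of 247 (5.26%, 2.83% to 8.83%) and 3 of 204 (1.47%, 0.304% to 4.24%) were cycling, but 1.66% and 1.49% when thinned. In CAR-like cells, 10 of 371 (2.70%, 1.30% to 4.90%) and 14 of 428 (3.27%, 1.80% to 5.43%) were cycling, and 1.98% and 1.68% when thinned. The arteriolar and endosteal fibroblast-like and osteoblast-like cells each had 4 such cells in Veh and 1 in Doxo, and the endothelial-like cells 1 and 0. Thinned, the arteriolar and endosteal fibroblast-like shares were 0.246% in Veh and 0.402% in Doxo, from 1 cell each. The 12 markers summed higher in Doxo in CAR-like (127.9 and 176.3 CPM) and chondrocyte-like cells (78.2 and 122.9 CPM). They were lower in the other 4 classes, among them endothelial-like cells (77.0 and 14.3 CPM).

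The cycling CAR-like cells of the 2 libraries differed in depth, with a median of 5582 UMIs per cell in Veh and 10285 in Doxo, and their replication RNA is given on both scales. The 10 Veh cells held 5 to 14 UMIs of the 21 replication genes, with a median of 8.0. The 14 Doxo cells held 0 to 71, with a median of 14.5, and 7 of them held 19 or more, above each of these 10 Veh cells. Relative to the UMIs of each cell the libraries overlapped, at 290.6 to 4730 CPM with a median of 1356 CPM in Veh and 0 to 3868 CPM with a median of 1481 CPM in Doxo, and the highest cell was a Veh cell. Summed, where deep cells weigh most, this came to 1033 CPM in Veh and 2138 CPM in Doxo in cycling cells, and to 386.8 and 386.7 CPM in the other CAR-like cells. The 7 Doxo cells alone carried 312 of the 1586 replication UMIs of the class (19.7%). They had 6 to 8 of the 8 CAR markers and 0 hemoglobin UMIs, and all 7 stayed CAR-like when cell cycle genes were left out of clustering, but 1 of 7 did with 20 principal components. Over all 24 cycling CAR-like cells, 19 had at least 6 CAR markers and 5 had under 5 of them. The call did not take in every cell rich in replication RNA. In Veh, 1 CAR-like cell held at least 20 replication UMIs (39), and it was not called cycling. In Doxo, 7 CAR-like cells held at least 20, of which 5 were called cycling.

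**Figure D4:**
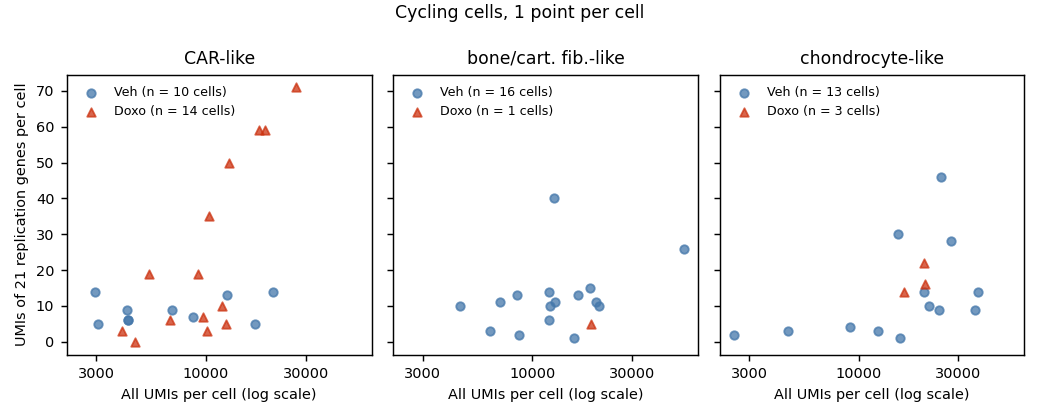
Each point is 1 cycling cell, with all UMIs of the cell on the horizontal log axis and the UMIs of 21 replication genes on the vertical axis (Veh blue circles, Doxo red triangles), in 3 classes. In CAR-like cells, 7 Doxo cells hold 19 to 71 replication UMIs where the 10 Veh cells hold 5 to 14, but the Doxo cells are deeper (median 10285 against 5582 UMIs) and the levels per cell overlap (medians of 1481 and 1356 CPM), and in bone and cartilage fibroblast-like cells 16 Veh cells stand against 1 Doxo cell.

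Leaving out the cycling cells, the replication genes of CAR-like cells no longer differed in sum, with a log2 ratio of -0.001 in place of 0.21. Rrm2 then had 10 UMIs left in Veh and 7 left in Doxo (log2 ratio -0.87, interval -2.53 to 0.65). Of the 64 Tyms UMIs of the Doxo cells 30 lay in cycling cells, against 0 of 26 in Veh, and the log2 ratio without these cells was 0.00 (-0.77 to 0.80). The higher values of Rrm2 and Tyms in Doxo CAR-like cells thus lie in 14 cells. Gins2 (0.71, interval -0.09 to 1.60, which includes 0) and Xrcc1 (0.89, interval 0.09 to 1.79) kept their direction, with 41 and 44 UMIs in Doxo cells that were not cycling and 19 and 18 in such Veh cells. For Xrcc1 the 13 alternatives ran from 0.66 to 1.051.

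**Figure D5:**
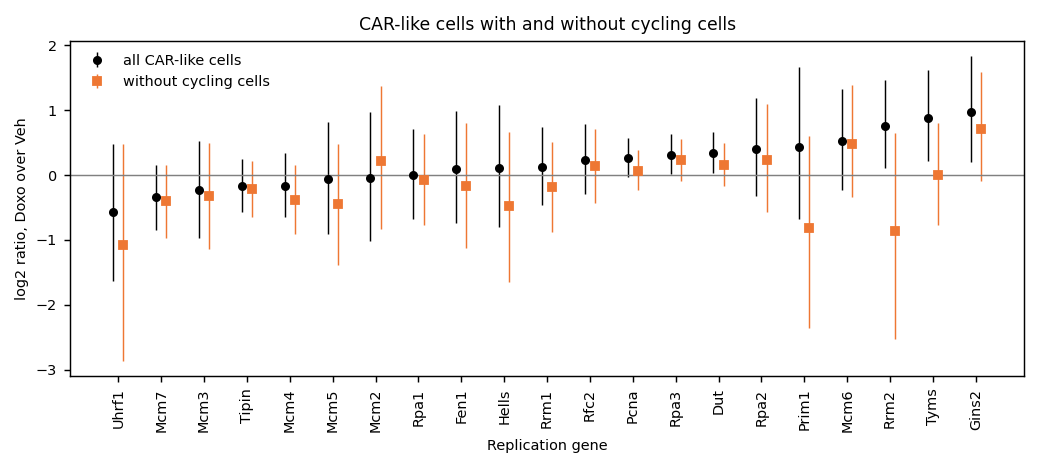
Log2 ratio of Doxo to Veh of the 21 replication genes in CAR-like cells, with all cells (black circles) and without the cycling cells (orange squares), with exact 95% intervals that cover counting error only. Rrm2 moves from 0.75 to -0.87 and Tyms from 0.88 to 0.00, and Gins2 from 0.97 to 0.71, where its interval includes 0.

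Other genes of replication (56 listed) and repair (83 listed) were counted by the same rule. In CAR-like cells 5 of 43 other replication genes were lower (11.6%, against 9.89% of all genes) and 9 higher (20.9%, against 12.9%). The DNA polymerase subunit Pold1 (7 and 28 UMIs, log2 ratio 1.52), the origin kinase Cdc7 (6 and 24, 1.51) and thymidine kinase Tk1 (21 and 76, 1.43) led them. Mcm9 (40 and 26 UMIs, -1.01) and the histone chaperone Nasp (314 and 220 UMIs, -0.92) were lowest. Of 62 other repair genes in these cells, 7 were lower (11.3%, against 9.89%) and 9 higher (14.5%, against 12.9%), shares near those of all genes. They ran from Rbbp8, which starts end resection (154 and 92 UMIs, -1.14), to the recombination factor Rad51ap1 (3 and 22 UMIs, 2.28). In Doxo the UMIs of Rad51ap1 lay in 10 CAR-like cells, those of Tk1 in 37, of Pold1 in 24 and of Cdc7 in 21. No values without cycling cells are given for these genes. In bone and cartilage fibroblast-like cells 11 of 52 other replication genes were lower (21.2%, against 9.38%) and 2 higher, with the S-phase regulators E2f8 (25 and 6 UMIs, -1.92), E2f2 (22 and 8, -1.35), Clspn (68 and 28, -1.21) and E2f1 (26 and 13, -0.92) lowest. In osteoblast-like cells 11 of 23 other repair genes were lower (47.8%, against 18.6%) and 0 higher (against 12.8%). Their lowest were the checkpoint loader Rad17 and the Atr partner Atrip, each with 18 and 4 UMIs (-1.37), and the ubiquitin ligase Rnf168 (24 and 6, -1.24), in the cells whose median mitochondrial share was 2.20% in Veh and 4.42% in Doxo. In arteriolar and endosteal fibroblast-like cells 4 of 35 other replication genes were lower (11.4%, against 9.35%) and 4 higher (11.4%, against 7.07%). Their median log2 ratio was 0.10. The lean of the 21 listed genes was thus not seen in these counts. It was seen in the sum of the longer list, at 689.4 CPM in Veh and 644.8 CPM in Doxo, a log2 ratio of -0.10 (-0.19 to -0.002). The lists of other genes in chondrocyte-like cells had medians of 0.01 for replication and 0.17 for repair, against 0.06 over all genes. In endothelial-like cells 3 of 14 other replication genes were lower (21.4%, against 10.5%) and 1 higher (7.14%, against 14.5%). Their median log2 ratio was -0.13, against 0.04 over all genes.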

How the data were processed

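A pair of libraries of bone resident cells (10x Genomics 3′ v3, 1 Veh and 1 Doxo) were compared. Per the labels, the authors aligned reads to GRCm38 (mm10) with Cell Ranger and used Partek. Versions are not given in the sources used here. The deposited log2 values had, judging from the numbers themselves, gone through scaling to 1000000 per cell and a logarithm, and then through both steps again. They were inverted to whole UMIs per cell (99.94% within 0.05 of a whole number for values of up to 50 UMIs). In 27 symbols, none a member, values were not whole.

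The filters were 200 to 10000 genes per cell, 100 to 100000 UMIs, a mitochondrial share of up to 10%, and a minimum of 3 cells per gene. Cells were clustered in Seurat 5.3.0 (R 4.3.3) without integration (2000 variable genes, 35 principal components, resolution 0.1). Endothelial clusters were set aside and the rest clustered again. A cluster was named by 3 or more markers, each present in 10% or more of its cells and raised by 1 log2 unit or more. Doublets were not called, and cells of high depth were left out as an alternative. The 99 cells of unnamed clusters were not used.

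UMIs were summed per class and library, with exact Poisson intervals (scipy 1.17.1), shares with exact Clopper-Pearson binomial intervals, and log2 ratios of CPM with 0.5 UMI added to each sum and exact conditional binomial intervals, all at 95%. They cover counting error only. With 1 library per condition no p-value is given. For the comparison of CAR-like cells, a simulation with 11508 genes, of which 200 were altered, had the true ratio inside 95.8% of intervals. This share is over all genes together and is not given apart for genes whose UMIs lie in few cells. Classes held 350007 to 11243838 UMIs per library. Named genes were, in each class, up to 5 members with the largest and up to 5 with the smallest ratio among those past 1.5-fold with at least 20 UMIs, and fixed genes (the Mcm genes, Pcna, Rrm2, Tyms, Uhrf1, Brca1, Atm, Prkdc, Xrcc5, Xrcc6, Parp1) in the class where they have most UMIs. Further members were named after their values were seen, to account for all 40. The members and lists were chosen with earlier results of these data known. Gene coordinates are from GENCODE M21 on GRCm38. Alternatives covered the cell filter, clustering, thinning to 2000 UMIs, cell weights, scaling, centring, deep, cycling and blood-marked cells, the UMI minimum and the fold. Leaving out cells with at least 10 hemoglobin UMIs was added after seeing the data.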

Additional observations from a re-analysis of the deposited data

Results flagged for a closer look

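4 members passed 1.5-fold upward in 1 class and downward in another, so that the single libraries moved opposite ways. These differences between classes were not tested, and each rests on 1 library per condition. Tyms was at a log2 ratio of 0.88 in CAR-like and -1.47 in arteriolar and endosteal fibroblast-like cells, a difference of 2.35. Rrm2 was at 0.75 and -0.76 in the same classes, a difference of 1.52. Rrm1 was at 0.91 in endothelial-like and -0.80 in chondrocyte-like cells, a difference of 1.71, and Trp53bp1 at 0.65 in chondrocyte-like and -0.82 in endothelial-like cells, a difference of 1.47. Tyms in CAR-like cells was at 0.00 and Rrm2 at -0.87 without cycling cells.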

How the results depend on the processing

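No paired analysis was possible because each condition has 1 library, and for the same reason no replicate could be left out. In CAR-like cells the replication ratio (0.21) was 0.064 with 20 principal components, 0.045 at a resolution of 0.2, -0.18 with cells thinned to 2000 UMIs, 0.013 with each cell weighing the same, 0.066 without the 5% deepest cells and -0.001 without cycling cells. The repair ratio was -0.12 without a sub-cluster of the CAR-like cells, named here for Il6. It held 173 of 371 CAR-like cells in Veh and 77 of 428 in Doxo, so the makeup of this class differed between the libraries. Rrm2 in these cells was -0.13 at a resolution of 0.2, -0.66 with equal cell weights, -0.75 without the deepest cells and -0.87 without cycling cells.

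Centred on the median of all genes, the bone and cartilage fibroblast-like ratios were 0.12 for replication and -0.10 for repair. With 20 principal components, the arteriolar and endosteal fibroblast-like value was 0.10 for replication and 0.22 for Tyms. At a resolution of 0.2 the osteoblast-like ratios were 1.25 for replication and -0.023 for repair. Thinned, replication was -0.46 and repair 0.038 in arteriolar and endosteal fibroblast-like cells, and replication -0.29 in chondrocyte-like cells. Thinning also turned Mcm7 (0.14) and Xrcc6 (0.12) in bone and cartilage fibroblast-like cells, Mcm6 (-0.032) in arteriolar and endosteal fibroblast-like cells, and Mcm4 (0.007), Pcna (-0.023) and Msh6 (0.26) in chondrocyte-like cells. The cause was not tested in any of these.

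Over all pairs of member and class, 20 were lower and 14 higher. Of all genes with the minimum, 9.35% to 18.6% were lower and 4.17% to 14.8% higher, depending on the class. The lower pairs numbered 33 with equal cell weights, 7 at 50 UMIs and 5 at 2-fold. The higher pairs numbered 24 at a resolution of 0.2, 8 when thinned, 8 at 50 UMIs, 22 at 10 UMIs and 1 at 2-fold. Of all genes, 6.33% to 14.9% were lower and 2.7% to 11.0% higher at 50 UMIs. At 2-fold, 3.54% to 6.9% were lower and 1.31% to 5.14% higher, and at 10 UMIs 5.59% to 18.1% were higher. For the other alternatives the share of all genes is not given, so these counts are a description only.

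The share of cycling cells in CAR-like cells was 1.10% in Veh and 1.43% in Doxo with 20 principal components, and in Doxo 1.43% at a resolution of 0.2 and 1.68% when thinned. In bone and cartilage fibroblast-like cells it was 0.464% in Veh when thinned and 0.820% without hemoglobin-bearing cells, and in Doxo 0.0% when thinned or without the deepest cells. It was, for arteriolar and endosteal fibroblast-like cells, 3.16% in Veh and 3.53% in Doxo with 20 principal components, and 0.246% in Veh when thinned. In osteoblast-like cells of Doxo it was 6.45% under the stricter cell filter, 7.46% at a resolution of 0.2, and 0.0% when thinned or without cells with blood markers. In chondrocyte-like cells it was 1.66% in Veh when thinned and 0.0% in Doxo with 20 principal components. The endothelial-like replication ratio stayed between 0.43 and 0.72 under its 12 alternatives, and the bone and cartilage fibroblast-like repair ratio between -0.24 and -0.10. Depth limits the osteoblast-like and endothelial-like cells most, where 4 and 8 replication genes and 5 repair genes each reached 20 UMIs.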
